A study of Homo sapiens with 9 samples.

Results

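The lysine acetyltransferases described here are EP300, CREBBP, KAT2A, KAT2B, KAT5, KAT6A, KAT6B, KAT7, KAT8 and HAT1, taken by gene symbol from the deposited table of 17529 genes. All 10 passed the filter on low counts, as did 13129 genes in all. They were measured by RNA-seq in cells labelled NCI-H69, an established human small cell lung cancer line, harvested 48 hours after siRNA transfection. Each of 3 groups held 3 biological replicates in the same medium with serum and antibiotics. The NC group received a control siRNA with no stated target, si_CSNK2B one that targets CSNK2B (the beta subunit of casein kinase 2), and si_P300 one that targets P300, which EP300 encodes. The siRNA sequences and the number of siRNAs per target are not given in the sources used here. Group names follow the labels. The question was how each siRNA group differed from NC, and both comparisons share the same 3 NC libraries. Whether the replicates came from separate cultures is not stated beyond the word biological. The p-values thus set group differences against the spread between these libraries, and may not carry over to separate cultures.

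Lysine acetyltransferases move an acetyl group from acetyl-CoA onto lysines of histones and other proteins. On histone tails this neutralises the charge of the lysine and gives a docking surface for bromodomain proteins, and it is a mark of active promoters and enhancers. The enzymes fall into families by their catalytic domain: the paralogs p300 and CBP, the GNAT enzymes GCN5, PCAF and HAT1, and the MYST enzymes. HAT1 acetylates newly made histone H4 before it is assembled into chromatin. CREBBP and EP300 are among the chromatin genes mutated in small cell lung cancer.

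In both siRNA groups CREBBP and KAT6A fell and KAT2A rose, and KAT5 fell in si_CSNK2B. EP300, the gene targeted in si_P300, was lower than NC by a similar and smaller amount in both siRNA groups and passed the test in neither. Within paralog pairs, the ratios of EP300 to CREBBP and of KAT2A to KAT2B were higher in every siRNA library than in every NC library. Each difference had the smallest p that an exact permutation test of 3 libraries against 3 allows (p = 0.1). The ratio of KAT6A to KAT6B was lower in si_CSNK2B without overlap, and overlapped NC in si_P300 (exact permutation p = 0.4). Among single tested genes, 53.0% in si_CSNK2B and 46.5% in si_P300 did not overlap NC, and the share among other gene pairs was not computed.

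Total read counts were 13.1 to 18.3 M per library. Across genes, log2 CPM (read counts scaled by TMM factors to a common library total) correlated at 0.974 to 0.992 between libraries of 1 group. Libraries of si_CSNK2B correlated with those of si_P300 at 0.977 to 0.989, a range that overlaps those within each siRNA group. NC libraries correlated with siRNA libraries at 0.955 to 0.972. Of 8 neuroendocrine markers of small cell lung cancer, 5 have a row in the table, and all 5 were below 1 CPM in each group, with a summed level of 0.713 to 1.24 CPM in NC, against 1.05 to 1.49 for si_CSNK2B and 0.880 to 1.35 for si_P300. The 5 epithelial markers summed to 5852 to 6703 CPM in NC, against 5063 to 5609 for si_CSNK2B and 4872 to 5519 for si_P300, so the cells did not carry the neuroendocrine markers of their label. Of the epithelial markers, KRT18 fell in both siRNA groups, by 0.70 and 0.66 on the log2 scale (edgeR adjusted p = 4.84e-04 and 9.17e-04), and the other 4 were not called. The 3 leukocyte markers with a row summed to at most 1.62 CPM in any library. The 5 fibroblast markers summed to 46.7 to 62.6 CPM over all libraries, mostly PDGFRA, with 3 of the 5 below 1 CPM. In bulk libraries such as these, fewer cells of a type and less RNA per cell cannot be told apart. CSNK2B stood at 193, 168 and 185 CPM in the NC libraries, against 168, 149 and 139 for si_CSNK2B and 158, 148 and 163 for si_P300. Its log2 fold change was -0.26 in si_CSNK2B (edgeR adjusted p = 0.0732) and -0.22 in si_P300 (adjusted p = 0.137).

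Across all tested genes, 34.0% were called in si_CSNK2B against NC (16.2% higher and 17.8% lower) and 28.3% in si_P300 against NC (13.6% higher and 14.7% lower), at an adjusted p under 0.05 in edgeR's quasi-likelihood test. Against these shares, 4 of the 10 acetyltransferases were called in si_CSNK2B, 1 higher and 3 lower, and 3 of 10 in si_P300, 1 higher and 2 lower. Both counts are near the background. The libraries of si_CSNK2B and NC did not overlap for 8 of the 10 genes, 1 higher and 7 lower, beside 53.0% of all tested genes (26.2% higher and 26.8% lower). For si_P300 and NC they did not overlap for 6 of 10, 1 higher and 5 lower, beside 46.5% of all tested genes (22.8% higher and 23.8% lower). The median log2 fold change of the 10 was -0.28 in si_CSNK2B and -0.18 in si_P300, where the median of all tested genes was 0.04 in each.

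**Figure D1:**
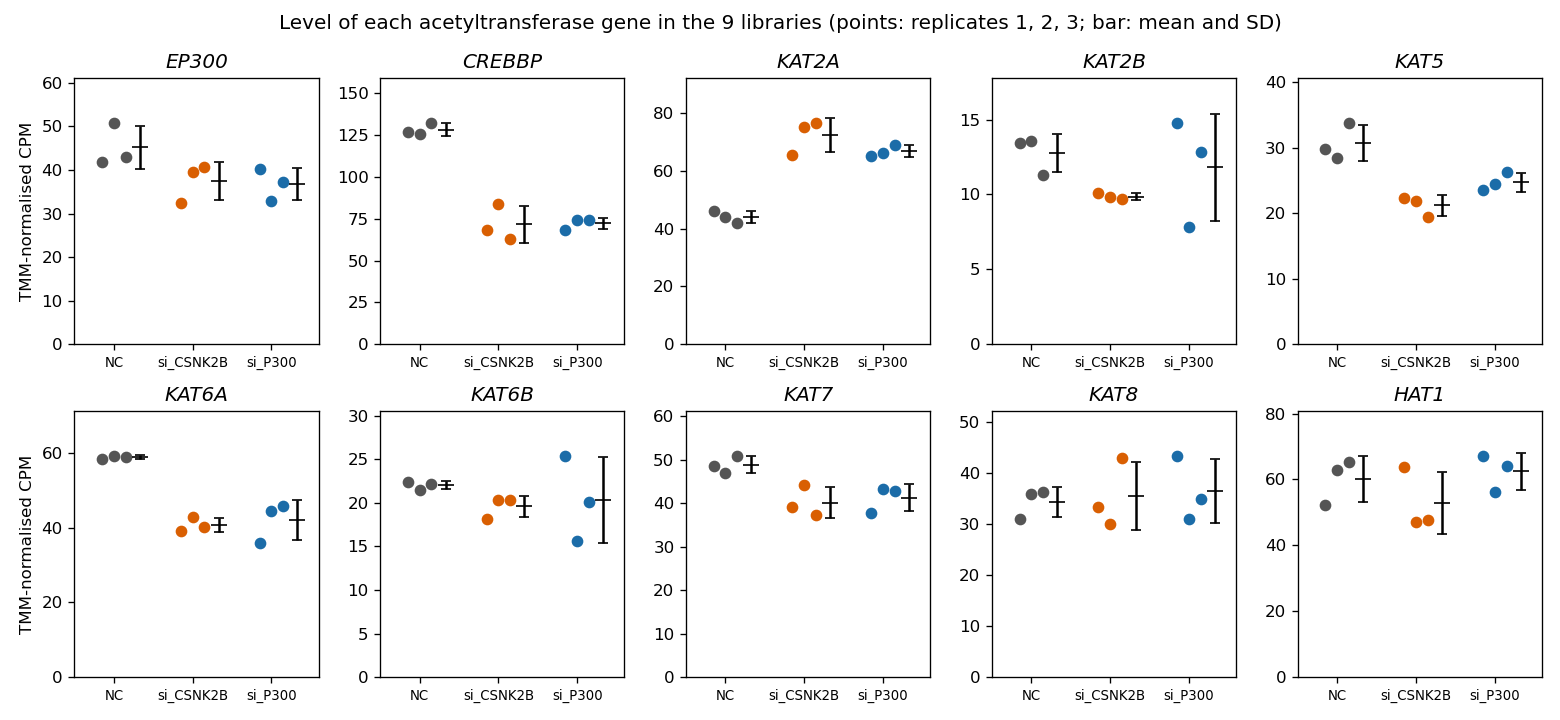
CPM scaled by TMM factors (y axis, starting at 0) of each of the 10 genes in the 9 libraries, by group on the x axis, with points for replicates 1 to 3 and a bar for the mean and SD of each group. CREBBP lay at 126 to 132 CPM in NC and at 62.7 to 83.6 in the 6 siRNA libraries, while KAT2A lay at 42.1 to 46.2 in NC and at 65.3 to 76.6 in the siRNA libraries.

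EP300 (gene ID 2033, GRCh38 chromosome 22, 41091786 to 41180079, plus strand) encodes p300, a coactivator that acetylates histone H3 at enhancers. Its level was 41.8, 50.8 and 43.0 CPM in the NC libraries, against 32.4, 39.4 and 40.6 for si_CSNK2B and 40.1, 32.9 and 37.3 for si_P300. Each siRNA library was below each NC library, but by little, with the highest siRNA library of each group close under the lowest of NC. The difference of si_P300 from NC was -18.6% (95% interval -32.8% to -1.32%), a log2 fold change of -0.30 ± 0.127 (SE, n = 3 libraries per group, edgeR adjusted p = 0.101). In si_CSNK2B the log2 fold change was -0.27 ± 0.127 (edgeR adjusted p = 0.119). EP300 thus did not pass the test where it was the target. Set against each other, si_CSNK2B and si_P300 differed in EP300 by 1.80% (95% interval -16.1% to 23.5%, si_CSNK2B minus si_P300). Over 16 alternative settings the log2 fold change ran from -0.37 to -0.15 in si_P300 (adjusted p 0.0622 to 0.398) and from -0.33 to -0.12 in si_CSNK2B (adjusted p 0.0940 to 0.502). The values nearest 0 came from log2 FPKM, and without si_CSNK2B replicate 1 the latter was -0.18. Antisense genes such as EP300-AS1 overlap the locus, and since the strand setting of the counting is not stated, their reads cannot be separated from those of EP300.

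CREBBP (gene ID 1387, GRCh38 chromosome 16, 3725054 to 3880726, minus strand) encodes CBP, the close paralog of p300 and first known as the partner of the cAMP-responsive factor CREB. Its level was 127, 126 and 132 CPM in the NC libraries, against 68.6, 83.6 and 62.7 for si_CSNK2B and 68.2, 74.3 and 74.2 for si_P300. All 6 siRNA libraries were far below all 3 NC libraries. CREBBP fell 1.79-fold in si_CSNK2B (log2 fold change -0.84 ± 0.114, edgeR adjusted p = 2.33e-04) and 1.78-fold in si_P300 (log2 fold change -0.83 ± 0.114, edgeR adjusted p = 3.63e-04). It was called in both comparisons under all 16 alternatives. The siRNA groups did not differ in CREBBP beyond their spread, at -0.857% for si_CSNK2B against si_P300 (95% interval -16.6% to 17.8%).

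The log2 ratio of EP300 to CREBBP read counts, taken within each library and so free of scaling between libraries, was -1.61, -1.30 and -1.62 in the NC libraries, against -1.08, -1.09 and -0.63 for si_CSNK2B and -0.77, -1.18 and -0.99 for si_P300. The ratio was higher in each siRNA library than in any NC library. It was 0.58 higher in si_CSNK2B and 0.53 higher in si_P300 (two-sided exact permutation p = 0.1 in each, the smallest that 3 libraries against 3 can give). In deposited TPM, levels per transcript length that share a common total, those of EP300 and CREBBP together were 31.9 ± 1.21 TPM in NC, against 21.0 ± 2.55 for si_CSNK2B and 21.2 ± 1.09 for si_P300 (SD, n = 3, exact permutation p = 0.1 for each siRNA group).

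**Figure D2:**
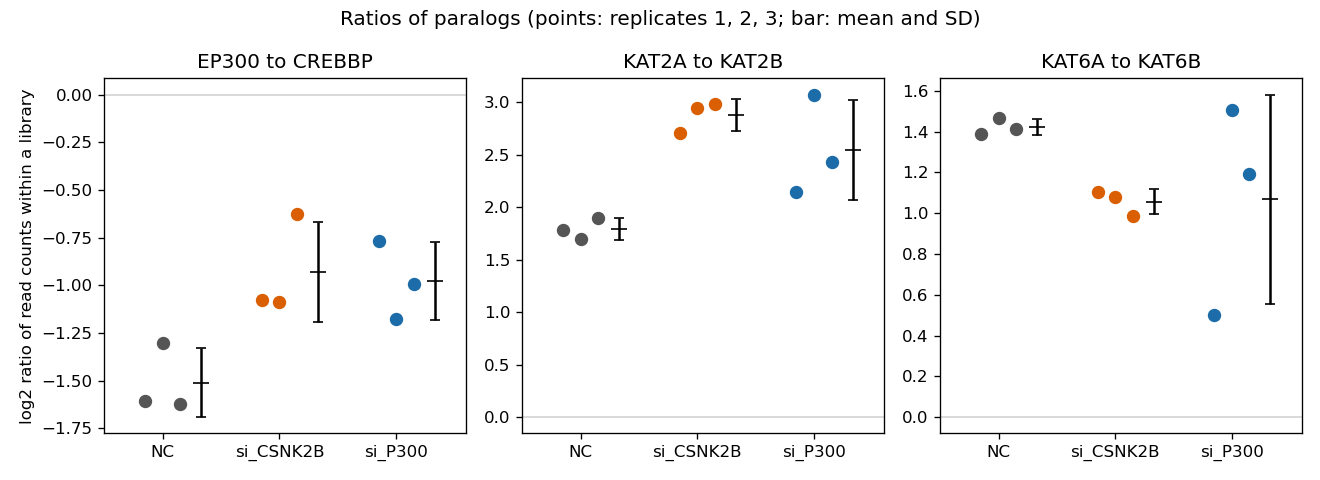
Log2 ratio of read counts within a library (y axis) for EP300 to CREBBP, KAT2A to KAT2B and KAT6A to KAT6B by group, with points for replicates 1 to 3 and a bar for the mean and SD. The first ratio was 0.58 and 0.53 higher and the second 1.08 and 0.75 higher than NC in si_CSNK2B and si_P300, with no overlap, while the third overlapped NC in si_P300.

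The sequence upstream of the gene is shown for CREBBP and KAT2A, which changed in opposite directions, and for HAT1, which passed the test in neither comparison. They are RefSeq promoters on GRCh38.p14, where 8 of the 10 genes matched, and each is printed 5′ to 3′ on the strand of its gene. For CREBBP and HAT1 the 250-base window ended inside the first GENCODE exon, so the 237 bases up to that exon are printed. CREBBP spans chr16:3880727-3880963 (minus strand), KAT2A chr17:42121368-42121617 (minus strand) and HAT1 chr2:171922211-171922447 (plus strand). Capitals mark TGACG or its reverse CGTCA, the CRE half-site bound by CREB and ATF factors, and CCGGAAGT or its reverse ACTTCCGG, a motif of ETS factors.
CREBBP: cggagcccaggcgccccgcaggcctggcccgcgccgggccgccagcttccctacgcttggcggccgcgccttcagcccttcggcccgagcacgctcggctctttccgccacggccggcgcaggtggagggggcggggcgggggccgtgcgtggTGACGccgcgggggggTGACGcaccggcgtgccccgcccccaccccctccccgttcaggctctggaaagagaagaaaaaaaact
KAT2A: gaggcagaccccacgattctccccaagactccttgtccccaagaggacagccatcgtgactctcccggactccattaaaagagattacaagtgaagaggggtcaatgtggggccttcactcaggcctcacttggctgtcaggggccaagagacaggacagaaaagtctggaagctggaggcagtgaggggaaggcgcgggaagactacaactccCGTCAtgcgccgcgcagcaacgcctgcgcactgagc
HAT1: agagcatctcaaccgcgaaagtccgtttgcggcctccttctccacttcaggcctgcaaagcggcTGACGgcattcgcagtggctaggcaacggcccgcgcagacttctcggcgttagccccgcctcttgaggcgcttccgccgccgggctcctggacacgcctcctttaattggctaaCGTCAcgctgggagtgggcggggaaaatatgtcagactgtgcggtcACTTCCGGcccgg
Counted from the first base of the motif to the end of the printed sequence, CREBBP has 2 half-sites at 84 and 68 bases, KAT2A has 1 at 36 bases and HAT1 has 2, at 173 and 59 bases, with an ETS motif at 13 bases.

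Both strands of the 250 bases before each RefSeq start were searched in all 35116 promoters of the table, of which 11 windows belong to the 8 genes (several starts for CREBBP and KAT6B). By the GENCODE gene models, 5 of these 11 windows lay wholly inside an exon of their own gene, among them those of EP300, KAT2B and KAT5, another 5 lay partly inside one, and 1 (KAT2A) lay outside. The windows are thus not all upstream of the gene. The share of G and C bases in the 11 windows ran from 56.4% (KAT7) to 84% (1 CREBBP window), beside a median of 58% over all promoters. The motif shares below were not matched for it. The half-site was in 5 of the 11 windows (1 each of HAT1, KAT5, CREBBP, KAT2A and KAT7) and in 21.2% of all promoters, and the full CRE TGACGTCA, which contains the half-site, was in 0 of 11 and in 1.65% of all. The ETS motif was in 3 of the 11 (HAT1, KAT5 and KAT7) and in 3.42% of all. GGGCGG, the GC box, was in 6 of 11 and in 42.6% of all, CCAAT in 2 of 11 and in 32.0%, and the E-box CACGTG in the KAT5 window and in 6.35%. TATAAA (10.7% of all) and the amino acid response element TGATGCAA (0.772% of all) were in 0 of the 11 windows. Of the genes with the half-site, KAT2A was called higher and CREBBP lower in both comparisons, and KAT5 lower in si_CSNK2B alone. KAT7 and HAT1 were called in neither comparison. Whether the half-site bears on these levels was not tested.

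KAT2A (gene ID 2648, GRCh38 chromosome 17, 42113108 to 42121358, minus strand) encodes GCN5, the acetyltransferase of the SAGA and ATAC complexes, which acetylates histone H3. Its level was 46.2, 44.0 and 42.1 CPM in the NC libraries, against 65.6, 75.1 and 76.6 for si_CSNK2B and 65.3, 66.0 and 69.03 for si_P300. Every siRNA library was well above every NC library. KAT2A rose 1.64-fold in si_CSNK2B (log2 fold change 0.72 ± 0.0987, edgeR adjusted p = 2.59e-04) and 1.51-fold in si_P300 (log2 fold change 0.60 ± 0.0986, edgeR adjusted p = 0.00114). It was the only 1 of the 10 genes called higher, and it was called in both comparisons under all 16 alternatives. A protein-coding gene model, AC099811.2, overlaps KAT2A on the same strand, so reads in the shared part are uncertain.

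KAT2B (gene ID 8850, GRCh38 chromosome 3, 20040023 to 20154404, plus strand) encodes PCAF, the paralog of GCN5 that takes its place in the same complexes. Its level was 13.4, 13.6 and 11.3 CPM in the NC libraries, against 10.1, 9.81 and 9.69 for si_CSNK2B and 14.8, 7.85 and 12.8 for si_P300. The si_CSNK2B libraries lay close together below NC, whereas si_P300 replicate 1 was above NC and replicate 2 below it. The log2 fold change was -0.37 ± 0.203 in si_CSNK2B (edgeR adjusted p = 0.177) and -0.10 ± 0.201 in si_P300 (edgeR adjusted p = 0.728).

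The log2 ratio of KAT2A to KAT2B was 1.78, 1.70 and 1.90 in the NC libraries, against 2.70, 2.94 and 2.98 for si_CSNK2B and 2.14, 3.07 and 2.43 for si_P300. The groups did not overlap with NC, and si_P300 spread widely. The differences from NC were 1.08 and 0.75 (exact permutation p = 0.1 in each), and the second ran from 0.49 to 0.96 with single libraries left out, its lowest value being without si_P300 replicate 2. In TPM, KAT2A exceeded KAT2B 4.88 ± 0.333-fold in NC, 10.4 ± 0.998-fold in si_CSNK2B and 8.55 ± 3.03-fold in si_P300 (SD, n = 3). Both genes together rose from 30.9 ± 2.10 TPM in NC to 47.7 ± 5.18 and 45.4 ± 3.41 TPM (exact permutation p = 0.1 in each, no overlap).

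The MYST enzymes came next. KAT6A (gene ID 7994, GRCh38 chromosome 8, 41929479 to 42052026, minus strand) encodes MOZ, which acetylates histone H3 with its BRPF partners. Its level was 58.5, 59.3 and 59.0 CPM in the NC libraries, against 39.1, 42.8 and 40.3 for si_CSNK2B and 36.0, 44.4 and 45.9 for si_P300. NC varied little, and all 6 siRNA libraries were below it. KAT6A fell 1.45-fold in si_CSNK2B (log2 fold change -0.53 ± 0.109, edgeR adjusted p = 0.00311) and 1.40-fold in si_P300 (log2 fold change -0.49 ± 0.109, edgeR adjusted p = 0.00672), and was called under all 16 alternatives in both.

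KAT6B (gene ID 23522, GRCh38 chromosome 10, 74824927 to 75032624, plus strand), which encodes the paralog MORF, was at 22.3, 21.5 and 22.2 CPM in the NC libraries, against 18.2, 20.3 and 20.4 for si_CSNK2B and 25.4, 15.6 and 20.1 for si_P300. As for KAT2B, si_P300 replicate 1 was the highest of all libraries and replicate 2 the lowest. The log2 fold change of KAT6B was -0.17 ± 0.159 in si_CSNK2B (edgeR adjusted p = 0.435) and -0.11 ± 0.158 in si_P300 (edgeR adjusted p = 0.632). The log2 ratio of KAT6A to KAT6B was 1.39 to 1.46 in NC, 0.99 to 1.11 in si_CSNK2B and 0.50 to 1.51 in si_P300. It was 0.37 lower than NC without overlap in si_CSNK2B (difference -0.37, exact permutation p = 0.1). In si_P300 the difference was -0.35 with overlap (exact permutation p = 0.4), -0.07 without si_P300 replicate 1 and -0.58 without si_P300 replicate 2.

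KAT5 (gene ID 10524, GRCh38 chromosome 11, 65711996 to 65719604, plus strand) encodes TIP60, which acetylates histones H4 and H2A and the DNA damage kinase ATM. Its level was 29.8, 28.5 and 33.8 CPM in the NC libraries, against 22.4, 21.8 and 19.4 for si_CSNK2B and 23.5, 24.5 and 26.3 for si_P300. Both siRNA groups were below NC without overlap, and si_CSNK2B was below si_P300 without overlap. KAT5 fell 1.45-fold in si_CSNK2B (log2 fold change -0.53 ± 0.116, edgeR adjusted p = 0.00421). In si_P300 the log2 fold change was -0.31 ± 0.115 (edgeR adjusted p = 0.0611), past the threshold with DESeq2 alone (adjusted p = 0.0440, range over 16 alternatives 0.0440 to 0.238). The siRNA groups differed from each other by -0.22 ± 0.116 on the log2 scale (edgeR adjusted p = 0.946), so a difference between both effects was not shown. RNASEH2C overlaps KAT5 on the other strand.

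KAT7 (gene ID 11143, GRCh38 chromosome 17, 49788555 to 49835030, plus strand) encodes HBO1, which acetylates histone H3 and H4 around origins of replication. Its level was 48.6, 46.9 and 50.9 CPM in the NC libraries, against 39.1, 44.1 and 37.2 for si_CSNK2B and 37.7, 43.2 and 42.9 for si_P300. No siRNA library reached the lowest NC library. The log2 fold change was -0.28 ± 0.106 in si_CSNK2B (edgeR adjusted p = 0.0562) and -0.24 ± 0.105 in si_P300 (edgeR adjusted p = 0.104). The first passed the threshold in 5 of 16 alternatives, among them without si_CSNK2B replicate 2 (adjusted p = 0.0384, range 0.0384 to 0.226).

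The implied transcript length of KAT7 moved further from that of NC than those of the other 9 genes did. The length that the deposited read counts and FPKM imply for a library is set by the mixture of isoforms the authors' estimate assigned, and it was computed after the data were seen. For KAT7 it was 3303, 3396 and 3222 bases in the NC libraries, against 3439, 3421 and 3844 for si_CSNK2B and 3429, 3614 and 3396 for si_P300. All si_CSNK2B libraries were longer than all NC libraries. The mean was 7.89% longer in si_CSNK2B (exact permutation p = 0.1) and 5.23% longer in si_P300, with overlap (exact permutation p = 0.2). Without si_CSNK2B replicate 3 the first difference was 3.72%, and without si_P300 replicate 2 the second was 3.20%. Among 11163 tested genes with a mean FPKM of at least 1, the implied lengths of si_CSNK2B and NC did not overlap for 22.1%. Of all these genes, 15.5% were longer and 6.53% shorter in this way. For si_P300 and NC the lengths did not overlap for 17.7%, with 11.2% longer and 6.53% shorter. A mean difference at least as large as that of KAT7, in either direction, was seen in 4.69% of these genes in si_CSNK2B and 6.76% in si_P300. For the other 9 acetyltransferases described here the difference was -0.617% to 1.34%. The annotation lists 7 protein-coding transcripts of KAT7, from 563 to 9644 bases, so its level per length depends on that assignment.

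KAT8 (gene ID 84148, GRCh38 chromosome 16, 31115754 to 31131393, plus strand) encodes MOF, which acetylates lysine 16 of histone H4 in the MSL complex. It was at 31.0, 35.9 and 36.3 CPM in the NC libraries, against 33.4, 30.1 and 43.0 for si_CSNK2B and 43.4, 31.0 and 35.0 for si_P300. One library of each siRNA group was above NC and the others within or just below its range. The log2 fold change of KAT8 was 0.05 ± 0.157 in si_CSNK2B (edgeR adjusted p = 0.841) and 0.09 ± 0.157 in si_P300 (edgeR adjusted p = 0.714), with 95% intervals of -18.6% to 31.0% and -16.3% to 34.6%.

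HAT1 (gene ID 8520, GRCh38 chromosome 2, 171922448 to 171983682, plus strand) was at 52.2, 63.0 and 65.3 CPM in the NC libraries, against 63.8, 47.1 and 47.7 for si_CSNK2B and 67.2, 56.2 and 64.0 for si_P300. Both siRNA groups overlapped NC. The log2 fold change was -0.18 ± 0.140 in si_CSNK2B (edgeR adjusted p = 0.328) and 0.05 ± 0.140 in si_P300 (edgeR adjusted p = 0.797). SLC25A12 overlaps HAT1 on the other strand.

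**Figure D3:**
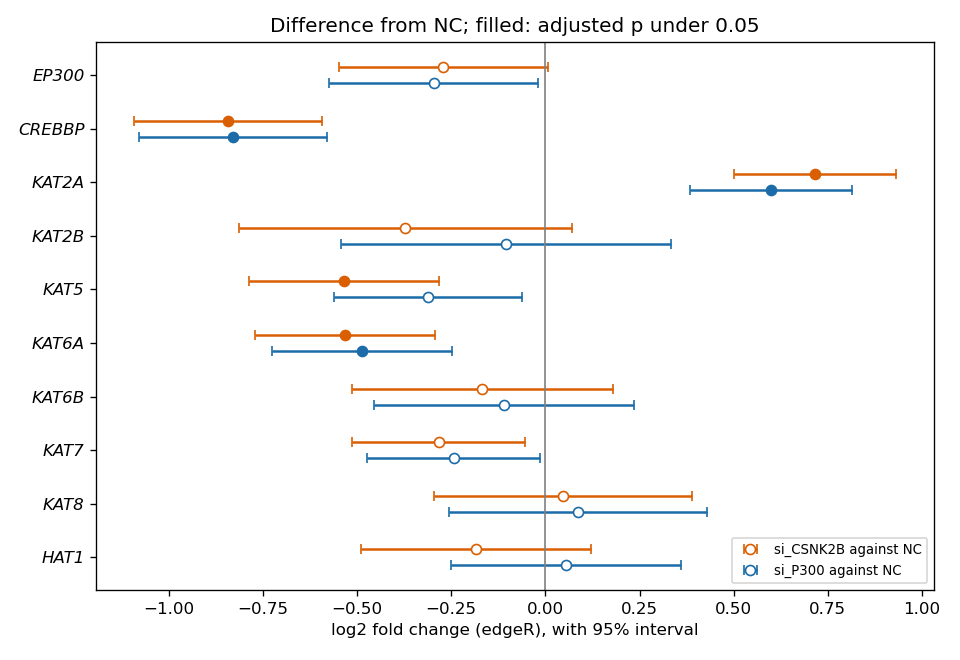
Log2 fold change from NC (x axis) of each gene (y axis) in edgeR, with 95% intervals, for si_CSNK2B and si_P300. Filled points passed an adjusted p under 0.05: CREBBP at -0.84 and -0.83, KAT2A at 0.72 and 0.60 and KAT6A at -0.53 and -0.49 in both comparisons, and KAT5 at -0.53 in si_CSNK2B.

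Set directly against each other, si_CSNK2B and si_P300 differed in 0 of 13129 genes (0%) by edgeR, and so in 0 of the 10. At an unadjusted p under 0.05, 661 genes and none of the 10 differed, with KAT5 the lowest of the 10 at an unadjusted p of 0.0804. DESeq2 called 8 genes, and again 0 of the 10. The libraries of the siRNA groups did not overlap for 1 of the 10 genes (KAT5), beside 7.14% of all tested genes (3.31% higher and 3.83% lower in si_CSNK2B). The differences of the 10 ran from -0.27 for KAT2B to 0.12 for KAT2A on the log2 scale. The 95% interval of KAT2A was -6.43% to 25.7% (si_CSNK2B minus si_P300), and that of KAT2B -38.9% to 13.1%.

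Per transcript length, the order of the levels in NC was HAT1 (64.8 ± 7.72 TPM), KAT8 (39.8 ± 3.94), KAT5 (29.3 ± 1.99), KAT7 (25.9 ± 1.201), KAT2A (25.6 ± 1.499), CREBBP (22.8 ± 0.318), KAT6A (11.4 ± 0.301), EP300 (9.14 ± 1.22), KAT6B (5.41 ± 0.0635) and KAT2B (5.27 ± 0.624, SD, n = 3). The libraries of KAT7 and KAT2A overlapped, as did those of KAT6B and KAT2B, and the other neighbours did not. CREBBP was thus the more abundant of its pair in NC, and KAT2A and KAT6A the more abundant of theirs. KAT2A moved from rank 5 to rank 2 in si_CSNK2B (43.5 ± 5.09 TPM) and rank 3 in si_P300 (40.3 ± 1.77 TPM), where its libraries overlapped those of KAT8. EP300, CREBBP, KAT6A, KAT6B, KAT2B and HAT1 kept their ranks in all 3 groups.

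KAT2A made up 10.7% ± 1.07 of the summed TPM of the 10 genes in NC, 19.5% ± 2.02 in si_CSNK2B and 16.8% ± 1.05 in si_P300. CREBBP made up 9.53% ± 0.411, 5.89% ± 1.00 and 5.59% ± 0.547 (SD, n = 3). The sum itself was 239 ± 12.1 TPM in NC, 223 ± 6.16 in si_CSNK2B (exact permutation p = 0.2) and 241 ± 23.4 in si_P300 (exact permutation p = 0.9). The 5 MYST genes summed to 112 ± 5.01 TPM in NC, 96.6 ± 6.71 in si_CSNK2B (exact permutation p = 0.1, no overlap) and 104 ± 10.8 in si_P300 (exact permutation p = 0.5).

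**Figure D4:**
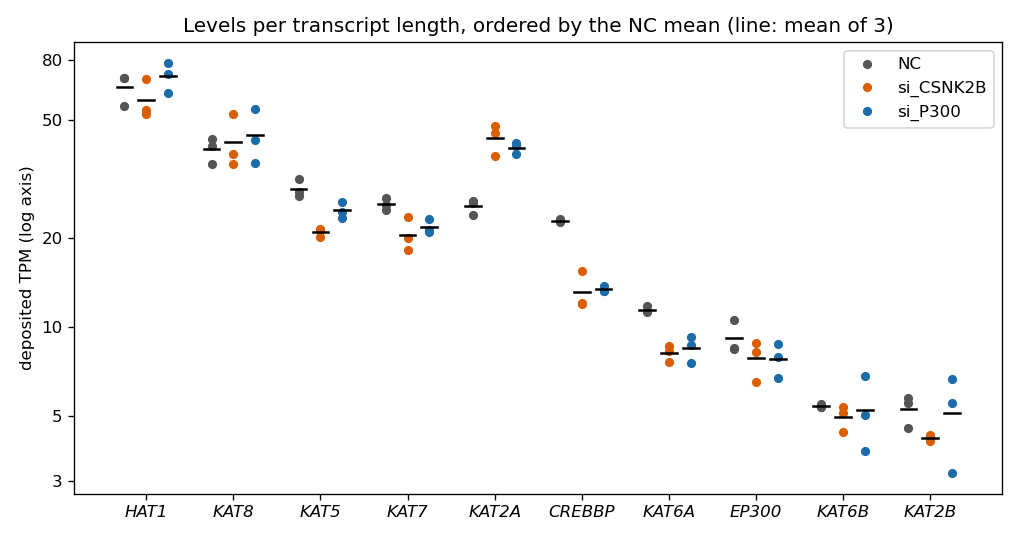
Deposited TPM (y axis, log scale) of the 10 genes, ordered by their NC mean on the x axis, with a point per library coloured by group and a line for the mean of 3. KAT2A lay at 23.9 to 26.7 TPM in NC and at 37.8 to 47.5 in si_CSNK2B, among the levels of KAT8, while CREBBP fell from a mean of 22.8 to 13.1 and 13.4 TPM.

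The partners of these enzymes were followed in 8 lists, described by counts beside the shares called over all genes (34.0% and 28.3%). Of 15 partners of p300 and CBP, 6 fell and 0 rose in si_CSNK2B and 5 fell and 0 rose in si_P300 (median log2 fold change -0.30 in each). Among them, CITED4, a small protein that binds p300 and CBP, fell by 1.07 and 1.26 on the log2 scale (edgeR adjusted p = 6.07e-04 and 3.03e-04). HIF1A, the hypoxia factor that recruits p300 and CBP, stood at 372 ± 30.1 CPM in NC, against 188 ± 3.27 for si_CSNK2B and 208 ± 49.8 for si_P300, and fell by 0.98 and 0.84 (edgeR adjusted p = 6.24e-04 and 0.00219). ATF1, a relative of CREB, fell by 0.77 and 0.64 (edgeR adjusted p = 6.54e-04 and 0.00253), while CREB1 itself was at -0.25 and -0.15 and passed neither test. With single libraries left out the count in si_P300 ran from 3 (without NC replicate 3 or si_P300 replicate 3) to 7.

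Of 23 subunits of SAGA and ATAC, the complexes built around KAT2A and KAT2B, 3 rose and 9 fell in si_CSNK2B (52.2%), and 2 rose and 5 fell in si_P300 (30.4%). The subunits that fell include SUPT3H, a core subunit of SAGA, by 1.11 and 0.96 on the log2 scale (edgeR adjusted p = 4.23e-04 and 0.00135). TADA3, which holds the enzyme in the acetyltransferase module, fell by 0.81 and 0.54 (edgeR adjusted p = 4.80e-04 and 0.00677). DR1, an ATAC subunit and repressor of transcription by RNA polymerase II, fell by 0.67 and 0.53 (edgeR adjusted p = 0.00174 and 0.00859). Of the subunits that rose, TAF6L was higher by 0.53 in each group (edgeR adjusted p = 0.00573 and 0.00706). ENY2 was higher by 0.51 and 0.31 (edgeR adjusted p = 0.00216 and 0.0351). MBIP rose by 0.33 in si_CSNK2B (edgeR adjusted p = 0.0255) and was at 0.27 in si_P300 (edgeR adjusted p = 0.0662). KAT2A therefore rose while SUPT3H, TADA3 and DR1 fell and TAF6L and ENY2 rose in the same libraries. With single libraries left out the count in si_CSNK2B ran from 7 (without NC replicate 1 or 3) to 11. In si_P300 it ran from 4 (without NC replicate 3) to 8.

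Of 17 subunits of the TIP60 (NuA4) complex, 2 rose and 7 fell in each comparison (52.9%). EPC2 and EPC1, which anchor TIP60 in the complex, fell by 0.98 and 0.58 in si_CSNK2B (edgeR adjusted p = 1.29e-04 and 0.00173) and by 0.66 and 0.58 in si_P300 (edgeR adjusted p = 0.00205 and 0.00222). MRGBP, a further subunit, fell by 0.48 and 0.39 (edgeR adjusted p = 0.00171 and 0.00694). TRRAP, the scaffold shared with SAGA, is counted in both lists. Without NC replicate 3 the count in si_P300 was 5.

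Of 9 partners of KAT6A, KAT6B and KAT7, 1 rose and 2 fell in si_CSNK2B, and 1 rose and 1 fell in si_P300. ING5, a reader of methylated histone H3 in these complexes, rose by 0.68 and 0.49 on the log2 scale (edgeR adjusted p = 0.00118 and 0.00993), a call that in si_P300 needed NC replicates 2 and 3. BRD1, a scaffold of KAT7 and KAT6A, fell by 0.42 and 0.45 (edgeR adjusted p = 0.00387 and 0.00313). JADE3, a scaffold of KAT7, was at -0.43 in each, with edgeR adjusted p = 0.0470 and 0.0531, on either side of the threshold, the first lost without any 1 NC library or without si_CSNK2B replicate 2 or 3. With single libraries left out the count in si_P300 ran from 1 (without NC replicate 2 or 3) to 4 (without si_P300 replicate 2).

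Of 11 subunits of the MSL and NSL complexes of KAT8, 1 rose and 0 fell in si_CSNK2B (9.09%), and 1 rose and 1 fell in si_P300 (18.2%). HCFC1, a host cell factor in the NSL complex, rose by 0.41 and 0.51 on the log2 scale (edgeR adjusted p = 0.00817 and 0.00310). OGT, the O-GlcNAc transferase found in the same complex, fell by 0.74 in si_P300 (edgeR adjusted p = 0.00804) and was at -0.47 in si_CSNK2B (edgeR adjusted p = 0.0512). In si_CSNK2B it passed the threshold in 6 of 16 alternatives (range of adjusted p 0.0185 to 0.167). Among them were DESeq2 and the fit without si_CSNK2B replicate 3, where the count was 2.

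Of 11 other lysine acetyltransferases, 1 rose and 2 fell in si_CSNK2B and 0 rose and 2 fell in si_P300. ELP3, the catalytic subunit of Elongator, which modifies tRNA, stood at 68.9 ± 5.54 CPM in NC, against 36.6 ± 2.86 for si_CSNK2B and 42.1 ± 1.70 for si_P300. It fell by 0.91 and 0.71 on the log2 scale (edgeR adjusted p = 7.29e-05 and 5.29e-04). TAF1, the largest subunit of TFIID, was at -0.34 and -0.32 (edgeR adjusted p = 0.0217 and 0.0352), and its call was lost in si_CSNK2B without NC replicate 2, NC replicate 3 or si_CSNK2B replicate 2, and in si_P300 without any 1 of the 6 libraries. ATAT1, which acetylates tubulin, rose by 0.62 in si_CSNK2B (edgeR adjusted p = 0.0296), a call lost without NC replicate 1 or 3 or si_CSNK2B replicate 2 or 3, and was at 0.26 in si_P300 (edgeR adjusted p = 0.357). The count was 1 in si_CSNK2B without NC replicate 3 or si_CSNK2B replicate 2, and 1 in si_P300 without any 1 library but si_P300 replicate 1.

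Of 5 histone-handling partners of HAT1, 1 rose in si_CSNK2B, and 1 rose and 1 fell in si_P300. NASP, a chaperone of histones H3 and H4, rose by 0.54 and 0.48 on the log2 scale (edgeR adjusted p = 0.00863 and 0.0181). Leaving out any 1 NC library or si_P300 replicate 3 ended its call in si_P300, where the count was 1. With single libraries left out that count ran from 1 to 3. RBBP7, a histone-binding protein, was at 0.20 and 0.19 and was not called (edgeR adjusted p = 0.196 and 0.248). RBBP4, also a histone-binding protein, stood at 137, 139 and 142 CPM in the NC libraries, against 164, 154 and 146 for si_CSNK2B and 83.0, 61.6 and 101 for si_P300. It fell by 0.77 in si_P300 (edgeR adjusted p = 0.00301) and was at 0.15 in si_CSNK2B (edgeR adjusted p = 0.455). Both siRNA groups were on opposite sides of NC without overlap. The direct difference was 0.92 ± 0.149 on the log2 scale (edgeR adjusted p = 0.232). DESeq2 called that difference (adjusted p = 4.23e-05), and over 16 alternatives the adjusted p ran from 4.23e-05 to 1.00.

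Of 8 genes that supply acetyl-CoA, 1 rose in si_CSNK2B and 2 rose in si_P300, and 0 fell. SLC25A1, the mitochondrial citrate carrier, was at 0.43 and 0.35 on the log2 scale (edgeR adjusted p = 0.0142 and 0.0425). ACLY, which splits citrate into acetyl-CoA, was at 0.21 and 0.27 (edgeR adjusted p = 0.102 and 0.0432). The calls were weak and moved in both directions. In si_CSNK2B the count was 0 without NC replicate 2 or 3 and 4 with library sizes alone. In si_P300 it was 0 without any 1 NC library or si_P300 replicate 2 and 1 without si_P300 replicate 3. Its highest value there over the 16 alternatives was 3. ACLY in si_CSNK2B passed the threshold in 5 of 16 alternatives (range of adjusted p 0.00684 to 0.297).

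**Figure D5:**
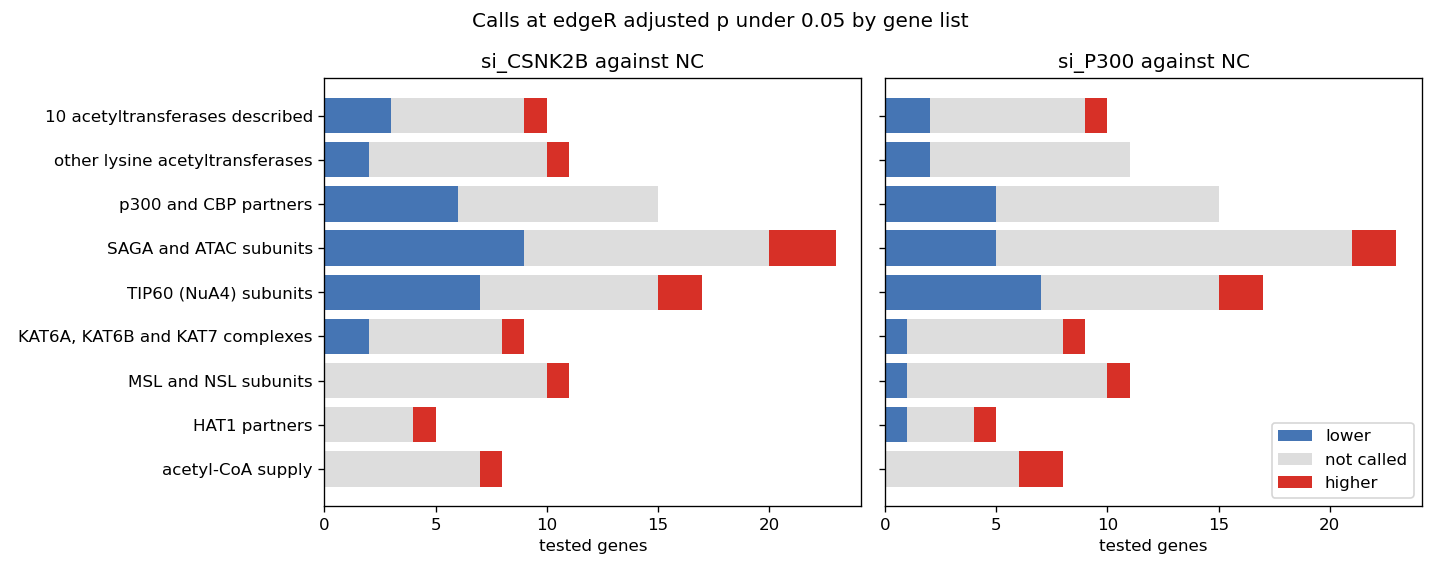
Number of tested genes (x axis) in each list (y axis) that were lower, higher or not called at an edgeR adjusted p under 0.05, for si_CSNK2B and si_P300 against NC. SAGA and ATAC subunits gave 9 lower and 3 higher in si_CSNK2B, TIP60 subunits gave 7 lower and 2 higher in each, and the partners of p300 and CBP gave 6 and 5 lower and 0 higher.

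Profiles of EP300 and CREBBP were compared with those of tested genes other than the acetyltransferases described here. Genes with LOC, LINC, MIR, SNOR, C-orf, FAM, KIAA, TMEM or antisense symbols were also left out. Any nearer genes among those left out are not listed. The measure was the root mean square difference of log2 CPM over the 9 libraries, centred on each gene's mean. Among the genes compared, those most like EP300 were CLDND1 (0.0546), ZMYM4 (0.0598) and ACVR2B (0.0681). The profile of EP300 itself varied by 0.186 around its mean, and its median difference from the genes compared was 0.307. The log2 fold changes of the 3 genes were -0.25, -0.29 and -0.34 in si_CSNK2B and -0.25, -0.26 and -0.27 in si_P300. For CREBBP the nearest were TPM4 (0.0628), RRAS2 (0.0740) and BOD1 (0.0752), beside a variation of 0.410 around its own mean and a median difference of 0.477. Their log2 fold changes were -0.94, -0.78 and -0.93 in si_CSNK2B and -0.87, -0.76 and -0.85 in si_P300. Since the genes were picked for their profile over these same libraries, fold changes close to those of EP300 and CREBBP follow from the choice.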

How the data were processed

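Per the labels, 9 RNA libraries were sequenced by BGISEQ (single-end, 50 bp). HISAT and Bowtie2 and the build GRCh38.p13 are named in the submitters' processing notes, without versions or roles. The counting tool, annotation and strand setting are not given in the sources used here. The read count columns hold expected counts, estimated per gene by the authors and deposited without scaling. The TPM and FPKM columns were also deposited by the authors, scaled per transcript length, and 1 TPM value is missing. The normalized read count columns, a signal deposited by the authors, and the 12 group-average columns were not used.

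Counts were rounded, filtered with filterByExpr (minimum count 10), scaled by TMM and tested in R 4.3.3 with edgeR 4.0.16 (quasi-likelihood, 1 fit of all 9 libraries, two-sided, Benjamini-Hochberg over 13129 genes, called under 0.05). CPM were taken over TMM-scaled totals, and log2 values used a prior of 2 counts. Ratios, summed TPM and implied lengths were compared by two-sided exact permutation tests over libraries. The fit was tested on simulated data. Locations come from GENCODE 29 on GRCh38. The 16 alternatives per comparison used DESeq2 1.42.0, limma 3.58.1 on log2 TPM (pseudocounts of 1 and 0.1) and log2 FPKM (pseudocount of 1), other scalings and filters (the stricter one asked for 1 CPM in 3 libraries and 50 mean counts), fits without the group not compared, fits with replicate number as a block, and fits without single libraries.

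The 10 genes and all lists were chosen with earlier results of these data known. Named genes are the 10, up to 3 called genes with the lowest p per list, and the 3 nearest profiles of EP300 and CREBBP. CSNK2B was given as the other target. CREB1, TRRAP, TAF6L, ENY2, MBIP, RBBP7, KRT18, the promoter motifs and the GC shares of their windows were added after the data were seen. So were the implied length, the summed TPM and the values of these 2 without single libraries.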

Additional observations from a re-analysis of the deposited data

How the results depend on the processing

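With 3 libraries a group, differences of about the size of EP300's lie near the limit of the test, and exact permutation p-values cannot go below 0.1. Members called ran from 4 to 5 in si_CSNK2B and from 3 to 4 in si_P300, and were 0 in the direct contrast, over the 16 alternatives of each. CREBBP, KAT2A and KAT6A in both comparisons and KAT5 in si_CSNK2B were called in all of them.

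Over all genes, 4462 were called in si_CSNK2B and 3709 in si_P300. With single libraries left out the counts ran from 2928 to 4029 and from 2191 to 3882, with the lowest of each without NC replicate 3, and 2322 in si_P300 without NC replicate 1. In the direct contrast DESeq2 called 8 genes where edgeR called 0. Same-numbered libraries of different groups did not deviate together (correlations of -0.290 to 0.0606, with 0 of 9 over 0.1). Differently numbered libraries of different groups ran from -0.192 to 0.256. With 3 libraries a group, these correlations cannot show whether the replicates were paired. The fit with a replicate block called 3828 and 3012 genes and changed no call among the 10. With it, TAF1 and JADE3 lost their calls in si_CSNK2B, where OGT gained one, and TAF1, SLC25A1 and ACLY lost theirs in si_P300.

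Scaling by library sizes alone moved the median of all genes from 0.04 to 0.16 in si_CSNK2B and from 0.04 to 0.15 in si_P300, and the share of calls that were higher from 47.6% and 48.1% to 66.0% in each. With log2 FPKM these shares were 62.6% and 62.4%. Against that shift KAT2B and KAT6B in si_P300, not called, turned to 0.0084 and 0.0033.

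The other changes of sign were all in differences that passed no test. In the direct contrast CREBBP turned to 0.0017 with library sizes alone, 0.0051 with the stricter filter and 0.0013 with only the 6 libraries compared. With single libraries left out, the log2 fold change against NC ran from -0.12 to 0.15 for KAT8 in si_CSNK2B, and in si_P300 from -0.30 to 0.11 for KAT2B, -0.30 to 0.046 for KAT6B, -0.060 to 0.19 for KAT8 and -0.040 to 0.12 for HAT1. In the direct contrast it ran from -0.048 to 0.12 for EP300, -0.14 to 0.075 for CREBBP, -0.15 to 0.022 for KAT6A, -0.21 to 0.14 for KAT6B, -0.11 to 0.011 for KAT7 and -0.20 to 0.11 for KAT8. The cause was not tested.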
